A study of Mus musculus with 4 samples.

Results

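Distal hubs are stretches of open chromatin away from listed promoters whose accessibility varied together with that of many other distal stretches. The authors' list held 145453 distal regions of 1000 bases, and their table of pairs gave each pair of nearby regions a co-accessibility score. A distal region was taken as a hub when 8 or more other distal regions were paired with it at a score above 0.25, each pair being counted once. Hubs were thus chosen by the co-accessibility score itself, made from the reads of all 4 libraries. By this rule 1173 of the 145453 distal regions (0.806%) were hubs. A further 19352 regions had 1 to 7 such partners and 124928 had none.

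The nuclei came from mammary glands of CD1 mice, 2 libraries from fetuses at embryonic day 18 (fetal 1 and fetal 2) and 2 from adults at 8 weeks (adult 1 and adult 2). Both stages were labelled wild type, and cells of both were sorted for EpCAM, an epithelial surface protein, and against lineage markers of other cells. Single-nucleus ATAC-seq, in which a transposase cuts and tags accessible DNA in each nucleus, gave 882 and 1695 fetal nuclei with 6028168 and 15801908 reads, and 2465 and 2804 adult nuclei with 13588107 and 19304830 reads. No barcode was shared between libraries. The labels name biological replicates but not whether each held 1 animal or a pool.

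Regulatory DNA far from a promoter, such as an enhancer, binds transcription factors and can act on a gene at a distance by looping of the chromatin. A co-accessibility score says that the openness of a pair of regions tends to vary together over the nuclei, and it is no direct measure of contact. The mammary epithelium holds basal cells, which contract and lie on the basement membrane, luminal progenitors, which give rise to milk-producing cells, and mature luminal cells, which sense oestrogen and progesterone. In the fetal gland these lineages are still being set apart.

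The authors sorted the nuclei into 14 classes. All 9 basal markers were raised in classes 1 and 8, all 6 mature luminal markers in class 2 and 5 of 6 in class 11, and 6 of 7 luminal progenitor markers in classes 3 and 7, so these are called basal-like, mature luminal-like and luminal progenitor-like here. Classes 4, 5, 9, 12 and 13 were from 93.0% to 100% fetal. Of these, class 4 had 6 of 9 basal markers raised (basal-like), and classes 5 and 9 had 4 and 5 of 7 luminal progenitor markers raised (luminal progenitor-like). Class 6 had all 7 stromal markers raised and is called stromal-like, although the sort selected epithelium. It also had 2 of 4 endothelial and 2 of 5 immune markers raised, as had class 11 for endothelial and class 7 for immune markers. Classes 10 and 14 showed raised markers of more than 1 lineage, and classes 10, 12, 13 and 14 were left unnamed.

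Sequence can be shown where a RefSeq start window lies inside a hub or in a promoter region linked to hubs. The following are from RefSeq on GRCm38.p6, 5′ to 3′ on the gene's strand, with matches to the searched motifs in capitals. The sequences shown belong to the 12 largest hub groups described below, or, for Kit, to a luminal progenitor hub. Other start windows, among them ones inside hubs of groups 2 and 7, are not shown. The first is the 250 bases upstream of Emp1 (chr6:135362681-135362930, plus strand), in a promoter region linked to 19 hubs, and the second a start window of the long noncoding RNA Gm36640 (chr6:135279302-135279601, plus strand) inside a hub of the same group.
Emp1: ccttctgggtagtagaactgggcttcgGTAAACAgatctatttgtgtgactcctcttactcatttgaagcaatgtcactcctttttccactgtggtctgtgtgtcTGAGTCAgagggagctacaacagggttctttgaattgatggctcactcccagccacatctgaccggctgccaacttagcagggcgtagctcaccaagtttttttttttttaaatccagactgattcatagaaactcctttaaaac
Gm36640: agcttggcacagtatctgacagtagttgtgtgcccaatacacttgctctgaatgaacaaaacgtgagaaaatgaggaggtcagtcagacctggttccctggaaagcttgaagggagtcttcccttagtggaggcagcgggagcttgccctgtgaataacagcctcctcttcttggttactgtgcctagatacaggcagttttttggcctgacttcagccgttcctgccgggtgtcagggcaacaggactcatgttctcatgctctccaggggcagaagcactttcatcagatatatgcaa
A further pair are start windows of noncoding RNAs inside hubs beside Foxa1, Gm20016 (chr12:57511837-57512136, plus strand) and Gm30518 (chr12:57575796-57576095, minus strand).
Gm20016: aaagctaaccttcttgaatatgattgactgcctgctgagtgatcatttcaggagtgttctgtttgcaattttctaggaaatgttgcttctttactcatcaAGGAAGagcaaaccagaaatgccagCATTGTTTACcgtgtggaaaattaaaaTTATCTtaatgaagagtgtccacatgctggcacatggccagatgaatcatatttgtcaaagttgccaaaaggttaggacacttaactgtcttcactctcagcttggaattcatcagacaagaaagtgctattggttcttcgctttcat
Gm30518: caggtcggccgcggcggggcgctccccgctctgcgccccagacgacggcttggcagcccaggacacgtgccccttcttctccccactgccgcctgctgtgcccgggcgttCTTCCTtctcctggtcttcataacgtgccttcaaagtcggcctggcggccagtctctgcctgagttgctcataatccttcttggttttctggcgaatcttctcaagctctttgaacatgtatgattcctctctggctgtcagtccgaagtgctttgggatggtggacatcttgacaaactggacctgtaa
The last are the 250 bases upstream of Msx2 (chr13:53472781-53473030, minus strand), in a promoter region linked to 7 hubs, and of Kit (chr5:75574737-75574986, plus strand), in a promoter region linked to 1 hub.
Msx2: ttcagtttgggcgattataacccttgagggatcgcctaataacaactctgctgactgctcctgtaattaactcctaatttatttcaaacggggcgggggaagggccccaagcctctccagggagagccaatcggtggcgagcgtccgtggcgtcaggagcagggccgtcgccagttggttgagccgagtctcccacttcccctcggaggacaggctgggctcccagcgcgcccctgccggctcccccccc
Kit: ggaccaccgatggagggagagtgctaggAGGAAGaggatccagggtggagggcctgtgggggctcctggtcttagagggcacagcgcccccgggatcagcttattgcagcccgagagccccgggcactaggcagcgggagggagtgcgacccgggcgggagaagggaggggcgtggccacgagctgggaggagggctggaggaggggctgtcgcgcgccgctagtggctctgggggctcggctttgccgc
Capitals in Emp1 mark an AP-1 motif, searched as TGACTCA, which read from the other strand is TGAGTCA, and a forkhead motif, searched as TGTTTAC. Capitals in Gm20016 mark ETS (searched as AGGAAG), forkhead, GATA (searched as AGATAA) and SOX (searched as ACAATG), of which the SOX and forkhead matches overlap. Capitals in Gm30518 and Kit mark ETS. All motifs were searched on both strands. Of 32851 RefSeq start windows of 300 bases, 5.20% held the AP-1 letters, 3.65% forkhead, 35.4% ETS, 11.2% GATA and 12.6% SOX. The upstream sequence of Msx2 and the Gm36640 window held none of the searched letters, which also covered RUNX (searched as TGTGGTT), TEAD (searched as ACATTCC), NFI and CTCF by name. A match is a run of letters and no measured binding.

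The number of partners fell off smoothly, with no gap at the threshold: 461 regions had 7 partners and 332 had 8. Just outside the rule, regions with 7 partners had a median of 341 reads over all nuclei, and those with 8 had 374. Hubs had a median of 10.0 partners and at most 28, and 24 hubs had 20 or more. They were 0.806% of the distal regions and stood in 10417 of the 27141 distal pairs above the score (38.4%). Of the hub links 33.7% led to another hub, and 2109 pairs joined hubs to each other. The rule counts links, so these shares follow in part from it and are no finding about hubs.

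**Figure D1:**
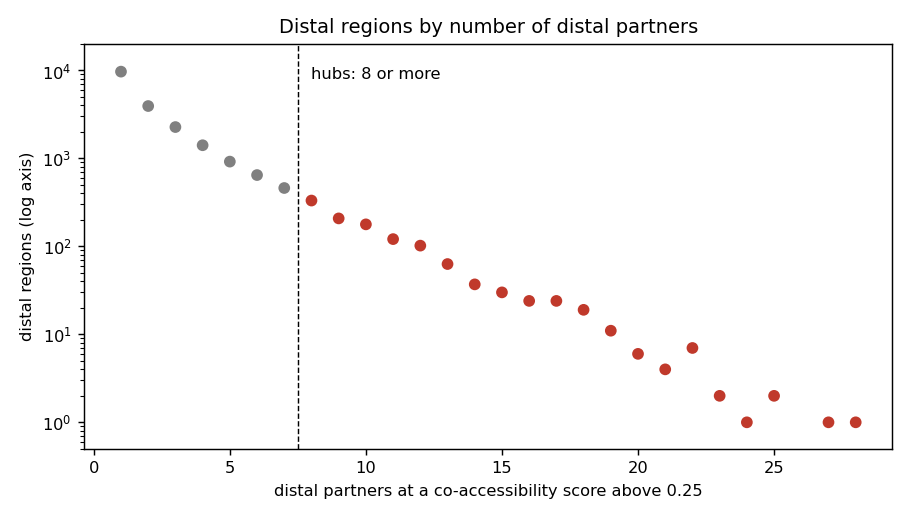
Number of distal regions (vertical, log axis) by number of distal partners at a score above 0.25 (horizontal). Each point is the count of regions with that many partners, grey below the threshold of 8 and red from it, and the counts pass from 461 regions at 7 partners to 332 at 8 without a break.

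Hubs were among the most read and most crowded distal regions. Their median was 416 reads, against 217 for regions with 1 to 7 partners and 71.0 for those with none. Of the 1173 hubs, 1048 lay among the 29092 distal regions with the most reads, 197 or more, and 0 among the 28790 with the fewest. A hub had a median of 115 other distal regions within 500 kb (88.0 over all distal regions), and 1.73% of the 29788 most crowded regions were hubs against 0.0449% of the 28940 least crowded. Read number and crowding therefore move with hub status, and their part in it was not tested.

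Links from hubs were longer by the median than other distal links. The median distance from a hub to a partner was 120 kb, against 100619 bases for linked distal pairs without a hub, and 54.9% of hub links spanned more than 100 kb. The longest was 499425 bases, and the distances of unlinked distal regions were not compared. Position relative to genes was close to that of distal regions at large: 54.5% of hubs lay in the span of a protein-coding gene (54.1% of all distal regions) and 16.5% within 10 kb of a listed promoter region (17.2%). A promoter partner above the same score was held by 487 hubs (41.5%) and by 10.5% of regions with 1 to 7 distal partners. The rule used the same score and threshold, so this difference is given as a description and nothing is read from it. Hubs lay on 19 chromosomes. Chromosome X held 2851 distal regions and 0 hubs, and no region there had more than 3 partners. There 1.72% of regions had any partner against 14.1% over all chromosomes, with a median of 33.0 other distal regions within 500 kb.

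Mature luminal-like nuclei were where most hubs were most open. The level of a hub in a class was its reads per 1000000 reads of that class. By the class with the highest level, 573 of the 1173 hubs (48.8%) belonged to class 2, which held 19.4% of the nuclei. Among regions with 1 to 7 partners, 21.9% were highest in class 2, and among all distal regions with 40 or more reads, 8.46%. Class 1, basal-like, followed with 197 hubs (16.8%, against 16.2% of regions with 1 to 7 partners), and class 7, luminal progenitor-like, with 95 (8.10%, against 9.66%). The other luminal progenitor-like class of the adult, class 3, was highest in 4 hubs (0.341%, against 2.08%). Fetal classes were highest in 152 hubs, led by class 12 with 53 (4.52%, against 7.08%) and class 5 with 41 (3.50%, against 6.90%). All fetal classes together were highest in 21.7% of regions with 1 to 7 partners and in 33.2% of all distal regions with 40 or more reads. The classes and the scores were made from the same nuclei, so these counts describe the hubs and test nothing.

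The median level over all hubs was 14.2 and 14.7 reads per 1000000 in class 2 of adult 1 and adult 2, 9.90 and 9.94 in class 11, and 3.94 and 2.55 in class 8. In fetal class 9 it was 2.82 and 3.00 in fetal 1 and fetal 2, and in fetal class 5 it was 1.79 and 1.43. Both adult libraries gave class 2 the highest median among the classes with at least 50 nuclei. Over the 6 adult classes with 100 or more nuclei in both adult libraries, 1153 hubs had 20 or more reads in each, and 71.5% of these had the same highest class in both libraries (55.5% of 15877 regions with 1 to 7 partners). Class 2 was highest for 563 of these hubs in adult 1, 626 in adult 2 and 504 in both. Hubs had a median of 416 reads against 217 for regions with 1 to 7 partners. They were also chosen on scores made from both adult libraries, so nothing is read from 71.5% against 55.5%.

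**Figure D2:**
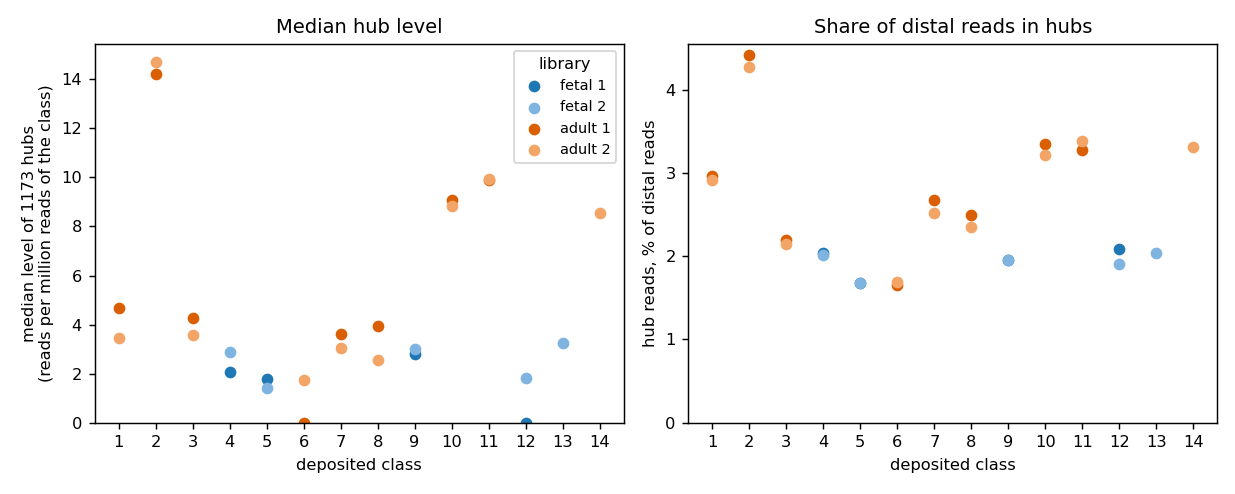
Left, the median level of the 1173 hubs (vertical, reads per 1000000 reads of the class in that library) by deposited class (horizontal). Right, hub reads as a percent of all distal reads on the same classes. Each point is 1 library with at least 50 nuclei in the class, and class 2 is the highest in both panels, at 14.2 and 14.7 reads per 1000000 and 4.41% and 4.27%.

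A hub and its partners tended to peak in the same class. In 50.7% of hub links the partner had the hub's own highest class, against 8.41% of 125733 pairings of a hub with other distal regions within 500 kb. Since a score rises when regions open together over these same nuclei, this likeness follows at least in part from the rule. The other regions were not matched to the partners for reads or distance, so nothing is read from the difference.

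When hubs linked to each other were joined, they formed 430 groups, 202 of them a single hub. The 12 largest groups held 160 hubs, and class 2 was the commonest highest class in 10 of them.

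The largest group, 20 hubs over 686 kb of chromosome 6, surrounded Emp1, which encodes a membrane protein of epithelia. Its lead hub (chr6:135367855-135368854) lay within Emp1 and had 23 partners, 19 of them hubs. The promoter region of Emp1, whose sequence is shown above, was linked to 19 hubs, more than any other. The lead hub had 3.48 and 3.10 reads per 1000000 in fetal 1 and fetal 2 and 14.2 and 19.4 in adult 1 and adult 2. Both adult libraries were above both fetal ones (log2 fetal minus adult -2.34, SE 0.269, edgeR adjusted p = 7.57e-09). It was open in several luminal classes, with 26.8 reads per 1000000 in class 2, 18.7 in class 3 and 17.9 in class 7, and was low in basal-like class 1 at 2.08. The hub that holds the Gm36640 window had 20 partners, with 29.0 reads per 1000000 in class 2 and 0.692 in class 1.

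Group 6, 13 hubs in 306 kb, lay around Foxa1, a pioneer transcription factor that opens chromatin for the oestrogen receptor. The lead hub (chr12:57535052-57536051), 5.08 kb from the gene, had 17 partners although only 56 distal regions lay within 500 kb. A promoter region inside the Foxa1 span, which also holds an end of Ttc6, was linked to all 13 hubs. The lead hub's levels were 3.15 and 1.52 in the fetal and 6.18 and 7.67 in the adult libraries, which did not overlap (log2 -1.68, SE 0.367, edgeR adjusted p = 0.000367). The log2 value was -1.05 without fetal 2 and -2.16 without fetal 1. By class the lead hub stood at 15.4 in class 2 and 13.1 in class 11 and at 0.702 in class 7, so the mature luminal-like classes stood apart from the luminal progenitor-like ones. In class 2 it was 12.9 in adult 1 and 17.7 in adult 2. The hub with the Gm20016 window was at 11.6 in both classes 2 and 11 and had no read in classes 3 and 7, and the hub with Gm30518 was at 25.1 and 24.3 in classes 2 and 11.

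Group 3, 15 hubs over 630 kb of chromosome 5, spanned a gene-rich stretch. Its lead hub (chr5:123820105-123821104) lay in Kntc1, a gene of the kinetochore, and had 27 partners, the second most of all. It was linked to 5 promoter regions, among them those of Denr, a translation factor, and Hip1r, an endocytosis gene. Levels were 4.81 and 7.21 in the fetal and 37.6 and 29.2 in the adult libraries. The adult libraries were higher without overlap (log2 -2.37, SE 0.222, edgeR adjusted p = 8.09e-11). Class 2 had 73.9 reads per 1000000, class 10 33.7, class 11 30.0 and class 1 2.77. In class 2 alone, adult 1 and adult 2 gave 82.8 and 65.1.

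Group 4 held 15 hubs around Hes1, a transcriptional repressor induced by Notch. Its lead hub, 22.7 kb from Hes1 and linked to the Hes1 promoter, had 12 partners and levels of 2.32 and 3.10 in the fetal and 21.9 and 16.2 in the adult libraries. It was at 35.1 in class 2 and at 18.6 in class 7. Group 5, 13 hubs in 387 kb, ran from Ripor3 to Ube2v1. It passed Ptpn1, a tyrosine phosphatase, and Cebpb, a transcription factor needed in mammary development. Its lead hub had 25 partners, and those that were hubs were highest in class 2 or class 10. That lead hub was at 27.5 in class 2 and at 2.46 in class 7. A promoter region 156 bases from an end of Cebpb was linked to 8 hubs, counted over all groups, of which 4 peaked in class 7. The lead hub of group 5 was not linked to it, and its hub partners did not peak in class 7.

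Group 2, 16 hubs in 525 kb beside F3 (tissue factor, the starter of blood clotting), had a lead hub 1.86 kb from F3 with 23 partners, 21 of them on the side of lower coordinates. Its levels were 7.96 and 4.30 in the fetal and 14.9 and 15.2 in the adult libraries. The adult libraries were above the fetal ones without overlap (log2 -1.36, SE 0.260, edgeR adjusted p = 6.8e-05), and the log2 value was -0.83 without fetal 2.

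Group 11 held 11 hubs over 557 kb beside Msx2, a homeobox gene of the embryonic mammary bud. Its lead hub lay 155 kb from Msx2 and was linked to the Msx2 promoter. It had 26 and 28 reads in the fetal and 177 and 245 in the adult libraries, with means of 3.04 ± 1.80 and 12.8 ± 0.212 reads per 1000000 (SD, n = 2), and no overlap (log2 -2.22, SE 0.313, edgeR adjusted p = 4.58e-07). The log2 value was -1.48 without fetal 2 and -2.82 without fetal 1. The hub stood at 26.3 in class 2, at 12.9 and 24.5 in class 11 of adult 1 and adult 2, and had no read in classes 1 and 8. So the hub beside this bud gene was most open in adult mature luminal-like nuclei.

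The lead hubs of groups 7 and 9 had almost no fetal reads. The lead hub of group 7, 40.6 kb from Hsf2bp, had 0 and 2 reads in the fetal and 266 and 222 in the adult libraries. That of group 9 (chr8:40658623-40659622), 16.0 kb from Adam24, a membrane metalloproteinase-like gene, had 24 partners, with 0 and 2 fetal and 209 and 252 adult reads. It was at 34.3 in class 2 and 22.1 in class 11 and had no read in classes 1 and 7. The lead hub of group 8, in Sfi1, a centrosome gene, was the most read of the 12, at 84.4 and 104 reads per 1000000 in the adult and 1.99 and 3.86 in the fetal libraries. Its levels were 203 in class 11, 179 in class 2, 146 in class 14 and 118 in class 10, and 22.1 or less in every other class.

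In group 12 the commonest highest class was fetal basal-like class 4, in 6 of 10 hubs. The group lay beside Dusp6, a phosphatase that switches off ERK and is itself induced by ERK signalling. The lead hub, 1.38 kb from Dusp6, had 21.2 and 25.6 reads per 1000000 in the fetal and 7.36 and 8.91 in the adult libraries. The fetal libraries were higher without overlap (log2 1.56, SE 0.212, edgeR adjusted p = 2.29e-07). It was at 45.4 in class 4, 24.9 in fetal class 9 and 2.87 in class 2. In adult basal-like class 1 it was at 5.86 in adult 1 and 12.3 in adult 2. A hub of the same group 5.59 kb from Dusp6 was at 12.4 in fetal 1 and 24.1 in fetal 2 in class 4, and at 1.04 in class 1.

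**Figure D3:**
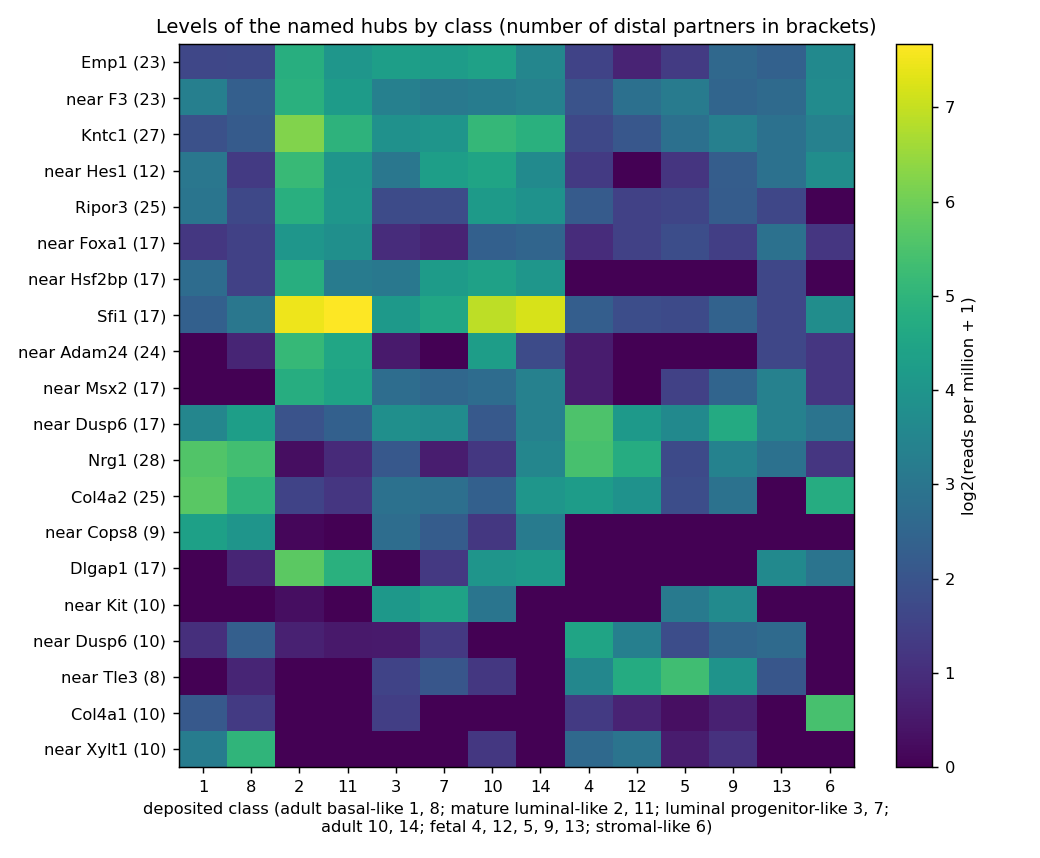
Levels of the named hubs (rows, labelled by the gene they lie in or near, with the number of distal partners) in the 14 deposited classes (columns), as log2 of reads per 1000000 reads of the class plus 1. The Kntc1, Foxa1 and Sfi1 rows are bright in classes 2 and 11, and Kntc1 and Sfi1 also in classes 10 and 14. The Emp1 row is bright in classes 2, 3, 7, 10 and 11, Nrg1 in classes 1, 8, 4 and 12, and Kit in classes 3 and 7.

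The hub with the most partners of all was basal. It lay in Nrg1 (chr8:32218549-32219548), which encodes neuregulin 1, a ligand of the ErbB receptors, and all 28 of its partners lay in the same gene. Of these, 9 were highest in class 1, 11 in class 4 and 4 in class 8, all basal-like. A further 3 were highest in unnamed class 12 and 1 in class 13, and none in the mature luminal-like classes. The hub stood at 46.7 in class 1, 39.6 in class 8 and 42.3 in fetal basal-like class 4, and at 0.212 in class 2. In unnamed fetal class 12 it was at 26.0. Each library gave the same picture: class 1 had 55.1 and 43.2 in adult 1 and adult 2, and class 4 had 38.1 and 44.1 in fetal 1 and fetal 2. Over whole libraries it was at 12.3 and 17.9 in the fetal and 6.84 and 9.58 in the adult (log2 0.93, SE 0.236, edgeR adjusted p = 0.00194). Without fetal 2 the log2 difference was 0.66 and without adult 1 it was 0.63, and neither passed the threshold.

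Other hubs of the named set were highest in basal-like or stromal-like classes. A hub in Col4a2, a chain of type IV collagen, had 25 partners and links to the promoters of Col4a1, Col4a2 and Irs2, an adaptor of insulin signalling. It was at 51.2 in class 1, 30.6 in class 8 and 1.91 in class 2. In stromal-like class 6 the adult libraries differed, at 14.2 in adult 1 and 50.2 in adult 2. Its libraries overlapped between stages, at 9.29 and 8.42 in the fetal and 8.39 and 13.3 in the adult (log2 -0.28, edgeR adjusted p = 0.399). A hub in the adjacent Col4a1 differed by class: it was at 42.8 in class 6 and 3.46 in class 1, and 9 of its 10 partners also peaked in class 6. Near Xylt1, which starts proteoglycan chains, a hub linked to the Xylt1 promoter was at 49.9 in adult 1 and 25.0 in adult 2 in class 8, and at 8.31 in class 1. A hub 174 kb from Cops8 was at 9.37 in adult 1 and 24.1 in adult 2 in class 1. In class 8 it was at 18.4 and 13.8, so the order of these classes differed between the libraries. It had 0 fetal reads in both libraries and 50 and 103 adult reads. Against a floor of 3 reads over both fetal libraries, its adult level was at least 33.8-fold higher.

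Mature luminal-like classes were highest in 619 hubs (52.8%, against 29.4% of regions with 1 to 7 partners). Adult basal-like classes were highest in 228 (19.4%, against 21.9%). Adult luminal progenitor hubs were fewer, 99 highest in classes 3 and 7 (8.44%, against 11.7%). The clearest by the ratio of class levels (chr5:75469534-75470533) lay 105 kb from Kit, the receptor tyrosine kinase used as a progenitor marker, and was linked to the Kit promoter shown above at a score of 0.505. It was at 20.4 in class 7, 16.1 in class 3, 11.8 in fetal class 9 and 0.212 in class 2, and had no read in classes 1, 4 and 8. In fetal class 5 it was at 4.47 in fetal 1 and 9.28 in fetal 2. The libraries overlapped between stages, at 5.14 and 7.21 in the fetal and 8.39 and 4.20 in the adult (log2 0.07, SE 0.306, edgeR adjusted p = 0.876). The ratio that picked this and the other class hubs divides by a median that is at or near 0 for several of them, so it ranks them and measures no fold. On the mature luminal side the same ratio picked a hub in Dlgap1, a scaffold gene, with 52.3 in class 2 and 28.5 in class 11 and no read in classes 1, 3 and 4.

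**Figure D4:**
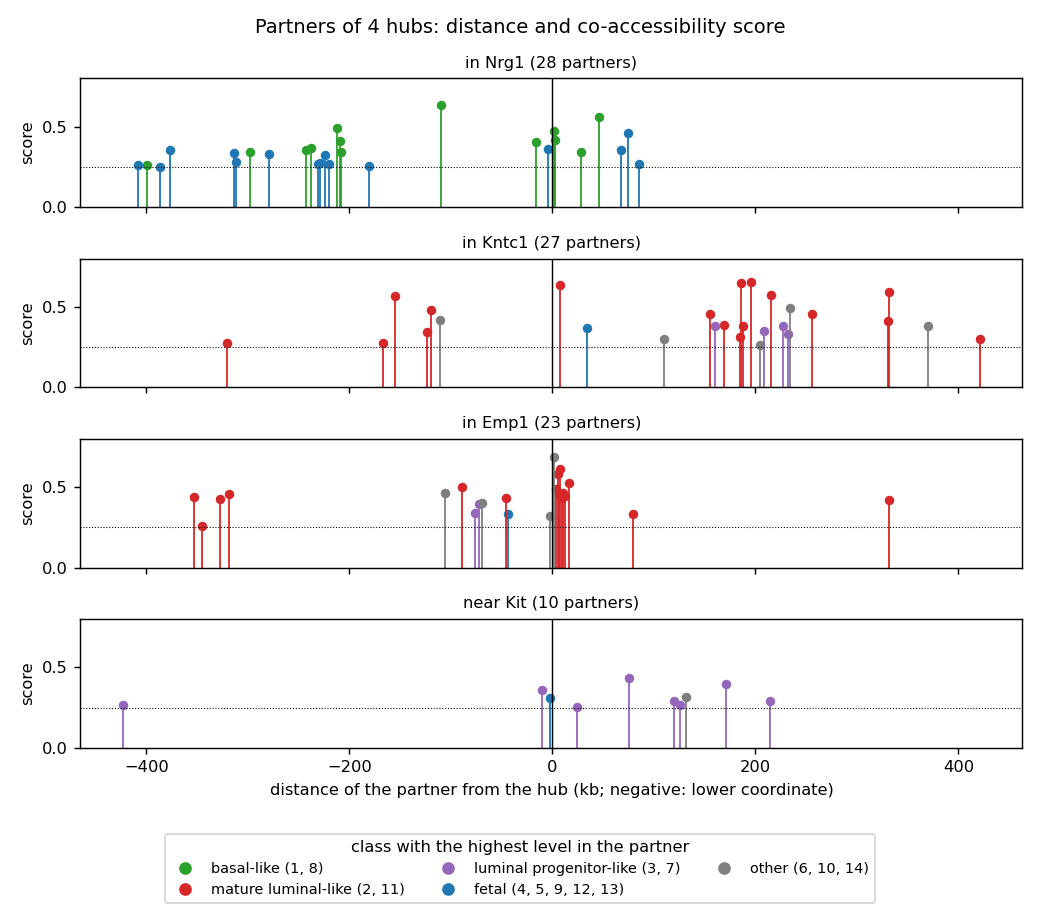
Distal partners of 4 hubs, with distance from the hub (horizontal, kb) and co-accessibility score (vertical); the dotted line is the threshold of 0.25 and the colour gives the class group in which the partner was highest. Partners of the Nrg1 hub are all basal-like or fetal, those of the Kntc1 and Emp1 hubs are mostly mature luminal-like, and those of the Kit hub mostly luminal progenitor-like.

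Besides those at Emp1, Foxa1 and Cebpb, 6 promoter regions were linked to 8 or more hubs. One in 4930432M17Rik had 13 linked hubs and one in Prlh, a neuropeptide gene, had 9, while those at Thbs1, an adhesive matrix protein, at Fam43a and a pair at Tnni1, a troponin, had 8 each. The linked hubs were most often highest in class 2 for 4930432M17Rik (10 of 13), Prlh (8 of 9) and Fam43a (6 of 8), in class 1 for both Tnni1 regions (6 of 8) and in fetal class 9 for Thbs1 (5 of 8). Regions linked to 7 hubs lay at Lamb3, a laminin chain of the basement membrane, at Fst, an activin antagonist, and at Gas1, Sema6a and Msx2. Class 1 was the commonest highest class of the hubs at Lamb3 (5 of 7), Fst (6 of 7) and Gas1 (4 of 7), class 5 at Sema6a (4 of 7) and class 2 at Msx2 (4 of 7). Of the list genes, the Sox10 promoter had 4 linked hubs, all highest in fetal class 12, and the Krt8 promoter had 5, of which 4 were highest in class 7.

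Hubs near genes with known mammary roles were counted on fixed lists. Within 50 kb of a gene start lay a hub for 21 of 93 list entries with a listed start, against 709 of 17492 protein-coding genes (4.05%). Within the gene or 50 kb of it lay a hub for 31 of 130 entries, against 5.51% of 21900 genes; this wider count was added after the data were seen, because the start table lacked many genes. The lists name genes of this tissue and were drawn up with earlier results known, so the counts describe them only. By the wider count hubs lay at all 4 luminal keratins, 7 of 16 Notch and Wnt genes, 5 of 16 luminal progenitor genes, 3 of 12 mature luminal genes, 3 of 15 basal genes, 3 of 11 AP-1 genes, 3 of 14 RUNX, TEAD, ETS and other factors, 1 of 4 NFI genes, 1 of 12 bud genes and 1 of 7 ErbB genes. None lay at the 11 fetal and oncofetal genes or the 8 Hox genes.

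The keratin hubs differed in class. The hub with the most partners near Krt8, which also served Krt18 within the window, was at 35.1 in class 7, 22.8 in class 3 and 15.1 in classes 10 and 11. In mature luminal-like class 2 it was at 20.5 in adult 1 and 15.7 in adult 2, and in the fetal 2 nuclei of class 9 at 17.9. That at Krt19 was at 26.0 in class 2 and 0.351 in class 7, and that in Krt7 at 21.0 in class 11 and 17.5 in class 2. The Krt19 hub was at 0 and 0.696 in the fetal and 10.9 and 11.4 in the adult libraries (log2 -4.47, SE 0.435, edgeR adjusted p = 2.11e-10). All 11 of its fetal reads were from fetal 2, and the fitted log2 value was -10.17 without that library and -3.96 without fetal 1. So keratin genes of both luminal lineages had hubs, and the class of the hub was not the same for each.

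Among the listed Wnt genes with a hub, those at Tcf7l2, Tcf7l1, Wnt5b and Fzd7 were higher in fetal libraries, the one at Wnt4 was lower, and the one at Lgr4 did not pass the test. Of all hubs 15.9% were higher in fetal libraries, and of all tested regions 16.6%. The Tcf7l2 hub, in a gene for a DNA-binding partner of beta-catenin, had 16 partners and was at 30.0 and 29.8 in the fetal and 13.3 and 10.5 in the adult libraries (log2 1.37, SE 0.196, edgeR adjusted p = 5.93e-07). It stood at 45.4 in fetal class 5, 37.4 in fetal class 12 and 31.8 in fetal class 4, and at 1.06 in class 2. In adult basal-like classes it was at 30.5 in adult 1 and 27.0 in adult 2 in class 1, and at 48.6 and 19.9 in class 8. The Tcf7l1 hub, in a related factor, was at 12.6 and 13.4 against 1.91 and 3.16 (log2 2.36, SE 0.286, edgeR adjusted p = 2.4e-08). Hubs at Wnt5b, a ligand, and Fzd7, a receptor, had log2 differences of 1.44 and 1.48 with edgeR adjusted p of 1.81e-06 and 7.73e-07. The Wnt5b hub was at 30.6 in fetal class 9 and 28.6 in fetal class 5. Adult luminal progenitor-like class 7 was close to these at 29.8, and class 2 had no read. By class the Fzd7 hub was highest in adult basal-like class 1, at 32.5, with 31.0 in fetal class 12 and 1.91 in class 2. The hub in Lgr4, a receptor for R-spondins, was at 12.9 and 14.9 in the fetal and 9.13 and 11.8 in the adult libraries, which did not overlap, and the difference did not pass the test (log2 0.45, edgeR adjusted p = 0.112). The hub in Wnt4, a ligand made by mature luminal cells, had 11 partners and was at 3.98 and 6.20 in the fetal and 11.6 and 10.5 in the adult libraries (log2 -1.01, SE 0.266, edgeR adjusted p = 0.00255). That call was lost when reads were placed by their midpoint (log2 -0.68). Of the Notch genes, the hubs at Hes1 and at Jag1, a Notch ligand, were lower in fetal libraries, with log2 differences of -2.71 and -1.47, as were 69.0% of all hubs. The Jag1 hub was highest in basal-like classes, at 24.2 in class 1 and 21.1 in class 8. In stromal-like class 6 it was at 9.47 in adult 1 and 27.7 in adult 2, and in class 14 at 14.1. The call of the Jag1 hub was lost without fetal 2 (log2 -1.13) and without adult 2 (log2 -1.19).

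Transcription factor genes showed both directions. The Nfib hub, in a nuclear factor I gene, was at 20.9 and 20.3 in the fetal and 4.19 and 5.85 in the adult libraries (log2 2.05, SE 0.233, edgeR adjusted p = 6.27e-09), and the Sox10 hub at 38.2 and 33.7 against 9.27 and 10.0 (log2 1.92, SE 0.195, edgeR adjusted p = 5.42e-10). The Elf5 hub, near an ETS factor of luminal progenitors, was at 23.7 and 18.7 against 12.4 and 9.84 (log2 0.96, SE 0.211, edgeR adjusted p = 0.000407). It was at 36.2 in fetal class 5, 31.0 in fetal class 12 and 0.212 in class 2. Adult luminal progenitor-like classes 3 and 7 had 23.3 and 23.0. Basal-like classes were not far from these, with 15.9 in class 1 and, in class 8, 32.8 in adult 1 and 15.8 in adult 2. The Tfap2c hub, at an AP-2 factor gene, was higher in fetal libraries (log2 0.85, SE 0.238, edgeR adjusted p = 0.00476), and lost that call with DESeq2 (log2 0.79). By contrast the Runx1 hub was at 7.46 and 4.94 in the fetal and 26.1 and 30.7 in the adult libraries, with 71.6 in class 1, and the Ets2 hub at 9.79 and 10.3 against 54.8 and 43.4. The Sox9 hub was also lower in fetal libraries, at 12.6 and 8.99 against 30.0 and 21.1 (log2 -1.24, SE 0.218, edgeR adjusted p = 1.98e-05), with 39.0 in class 2 and 27.7 in class 7. So were the hubs at the other luminal progenitor list genes, Cd14, a co-receptor for lipopolysaccharide, and Lcn2, an iron-sequestering protein, with log2 -1.85 and -1.54 and edgeR adjusted p of 4.96e-08 and 3.66e-05. Of the 5 luminal progenitor list genes with a hub, 2 had a hub higher in fetal and 3 a hub lower in fetal libraries. Hubs at the AP-1 genes Fosb and Jun were lower in fetal libraries (log2 -1.24 and -2.71), and that at Bach2, an AP-1-like repressor, was higher (log2 1.23). Among all hubs 15.9% were higher and 69.0% lower in fetal libraries, and among all tested regions 16.6% and 18.8%. Nothing is read from the counts on these lists.

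Over all hubs the adult libraries were higher. Hub reads were 1.93% and 1.90% of distal reads in fetal 1 and fetal 2 and 3.29% and 3.14% in adult 1 and adult 2, or 1.91% ± 0.0173 (SD, n = 2) against 3.21% ± 0.0996 (SD, n = 2). With 2 libraries a stage no exact test of this share can reach 0.05. In an edgeR fit over 122865 distal regions, 35.3% passed an adjusted p of 0.05 in either direction, 16.6% with more reads in fetal and 18.8% with more in adult libraries. All 1173 hubs passed the filter on low reads, and 809 (69.0%) were higher in adult and 187 (15.9%) higher in fetal libraries, with 177 not called. For regions with 1 to 7 partners the shares were 46.7% and 22.2%. The median log2 difference was -1.80 for hubs, -0.80 for regions with 1 to 7 partners and -0.01 for all. The scores that chose the hubs came from these same reads, most of them adult, so nothing is read from these shares.

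Stage and class moved together. Of the 573 hubs highest in class 2, 564 were called higher in adult libraries, and the fetal libraries held 1 and 2 nuclei of that class. All 41 hubs highest in class 5 and all 19 highest in class 4 were called higher in fetal libraries. Class 5 was 100% fetal and class 4 98.7%. The calls in classes 2, 4 and 5 therefore follow largely from the choice of class and test nothing about hubs. The same shares were not counted for other distal regions highest in these classes. Of the 197 highest in basal-like class 1, 41 were higher in fetal and 53 higher in adult libraries, with a median log2 difference of 0.00. In summed libraries, more nuclei of a class and more reads per nucleus at a hub cannot be told apart.

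Among called hubs with a mean of 50 or more reads, the largest falls in fetal libraries were the hub in Gatb, a gene of mitochondrial translation, and the group 7 and group 9 lead hubs. The Gatb hub (chr3:85579516-85580515) had 0 and 0 fetal and 246 and 248 adult reads, at least 109-fold higher in adult libraries against a floor of 3 reads over both fetal libraries. It was at 37.0 in class 2 and 32.3 in class 10. The largest rise was a hub 132 kb from Tle3, a corepressor (chr9:61549514-61550513), at 19.2 and 18.5 in the fetal and 0.957 and 0.881 in the adult libraries (log2 4.39, SE 0.298, edgeR adjusted p = 6.18e-14). It was at 39.0 in fetal class 5, and in fetal class 12 at 14.3 in fetal 1 and 28.5 in fetal 2. Hubs 239 kb from Lmo4, a LIM-only cofactor, and 231 kb from Phlda1 followed, at log2 3.40 and 3.32. The Lmo4 hub was at 15.1 and 16.7 against 1.32 and 1.71, with 26.7 in class 12 and 24.2 in class 5, and the Phlda1 hub was at 15.0 in class 12 and, in class 5, at 9.84 in fetal 1 and 17.1 in fetal 2.

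**Figure D5:**
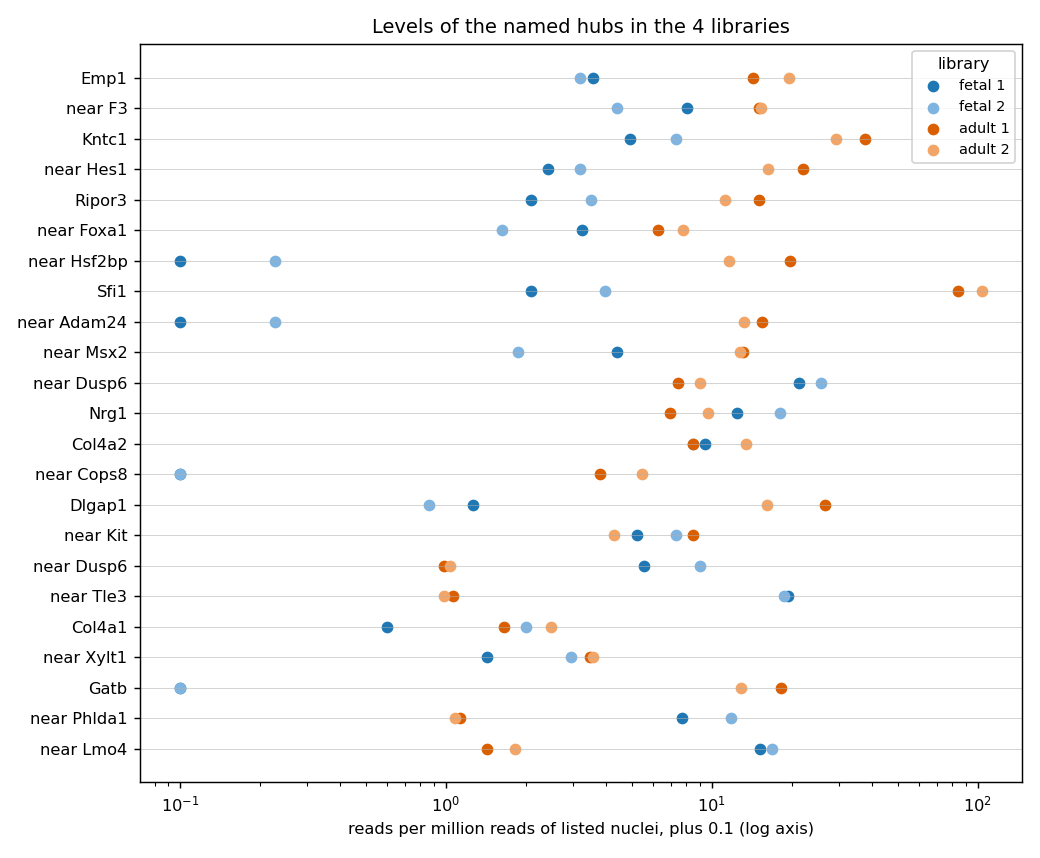
Levels of the named hubs (rows) in each library (horizontal, reads per 1000000 reads of listed nuclei plus 0.1, log axis). Each point is 1 library, and the adult points lie to the right of the fetal ones for the first 10 rows, while the hubs in Nrg1 and near Dusp6, Tle3, Phlda1 and Lmo4 have the fetal points to the right.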

How the data were processed

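Per the labels, nuclei of EpCAM-positive, lineage-negative mammary cells were profiled by single-nucleus ATAC-seq in 4 libraries. Bowtie2, MACS2, bedtools and the build mm10 are named in the submitters' processing notes; settings were not given in the sources used here. The authors deposited read positions, kept barcodes, region lists, a co-accessibility score per pair of regions (Cicero, by its name) over all nuclei, and a table with the count of reads and a class per nucleus. The deposited count of reads equalled the recount in every nucleus. The gene accessibility scores (7846 columns) and 427 other columns of the table of nuclei, motif scores among them, were not used.

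Reads of listed nuclei overlapping a region by 1 base were counted per library and class, and levels are reads per 1000000. Stages were compared with edgeR 4.0.16 (TMM, quasi-likelihood, Benjamini-Hochberg over all 122865 distal regions with a mean of 10 or more reads). SE is the log2 difference divided by the root of F. DESeq2 1.42.0 was an alternative. The fit was tested on simulated data. A class marker counted as raised when its log2 level over the gene and 2000 bases on either side exceeded the mean of the other classes by 0.5. Doublets were not called.

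Hubs, lists and rules were chosen with earlier results of these data known. Named hubs are the lead hubs (most partners) of the 12 largest groups, the 5 hubs with the most partners, the hub with the largest ratio of its level to the median of the other classes in each class of 200 or more nuclei, and the 3 largest stage changes each way. The lead hub of 1 of the 12 groups is not reported here. List genes are shown by their hub with the most partners. Genes come from RefSeq GRCm38.p6 spans. Motifs across the hub sequences were not analysed here, since no genome was used. P-values measure the spread between 2 libraries a stage. Same-numbered libraries did not deviate together (correlation 0.063 over 28608 regions).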

Additional observations from a re-analysis of the deposited data

How the results depend on the processing

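The number of hubs followed the rule: 2521 at a score above 0.2, 504 above 0.3, 3201 with 5 or more partners and 633 with 10 or more, against 920 with partners at least 10 kb away and 966 with close partners merged. Hubs near a promoter numbered 669 within 50 kb. Counts of hubs called by stage stayed within 1.5 times under every alternative run: DESeq2 called 155 higher in fetal and 750 higher in adult libraries, over all regions 10847 and 14025 against 20351 and 23072. Leaving out 1 library gave 161 to 181 and 766 to 797, and 442 to 568 hubs highest in class 2. Scaling levels to the distal reads of each class gave 508 hubs highest in class 2. The replicate block gave 191 and 814; the numbers share no source in the labels and did not pair the libraries. Of the single hubs, the uncalled Kit hub changed sign with DESeq2 (-0.02), with no filter (-0.08) and with 1 library left out (-0.46 to 0.53), and the uncalled Egfr hub likewise (-0.01, -0.09 and -0.22 to 0.27). The Trp63 hub (log2 0.73) lost its call with DESeq2 (0.68), with no filter (0.58) and without any 1 library (0.63 to 0.79). The cause was not tested. The Krt8 hub lost its call without fetal 2 (-0.68) and without adult 1 (-0.52). Levels of classes with few nuclei rest on few reads. The motif share of hub sequences, whole or central, was not run.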
